A study of Mus musculus with 4 samples.

Results

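Müller glia are the radial support cells of the vertebrate retina, and the genes described here are 10 that these cells use to handle glutamate, water, potassium, acid and lipids or that mark their identity: Glul, Slc1a3, Aqp4, Kcnj10, Vim, Apoe, Clu, Dkk3, Car14 and Sox9. They were picked by name as known Müller glia genes, with no threshold on their values, although earlier results of these data were known. Each matched a single row among the 22863 genes of the table. The study asked how light history alters the mouse eye, and its RNA-seq compared objective day (OD) with subjective day (SD). All samples came from C3H mice, which the methods specify as C3H/f+/+, a melatonin-proficient strain free of the Pde6b mutation, and their exact age is not given for the RNA-seq. SD mice were taken at CT 6 (circadian time, 6 hours after the scheduled onset of light) after 18 hours in darkness by the methods, although one passage of the study gives 30 hours. OD mice were taken at ZT 6 (the same clock hour under the real light cycle), having seen light that morning and then 1 hour of darkness. Each of the 2 samples per condition pooled 4 eyes, which came from 1 female and 1 male mouse, so differences between individual mice cannot be seen. The tissue was the posterior eye (retina, RPE, choroid and posterior sclera), and the values are therefore those of a mixture of cells and not of isolated glia.

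Müller cells clear glutamate from the synaptic layers through the transporter encoded by Slc1a3 and convert it to glutamine with glutamine synthetase, the product of Glul. They carry potassium away from active neurons through the inward rectifier channel encoded by Kcnj10, and water follows through the aquaporin encoded by Aqp4, both of which are concentrated at the endfeet on vessels and the vitreous. None of the 10 genes is exclusive to these cells. Retinal astrocytes also use several of them, and Vim, Apoe and Clu are known from many other ocular cells, among them fibroblasts, lens, RPE and macrophages.

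The values are read counts per gene that had been adjusted to a common library size, called adjusted counts below. Each sample's sum (33.3 to 35.2 in units of 1e6) reflects the adjustment, and the sequencing depth is unknown. All 10 genes passed the filter of an adjusted count of at least 10 in at least 2 samples, as did 17784 genes in all. Conditions were compared with limma on log2(adjusted count + 1), and fold changes are given as OD over SD on that scale. A gene is called when its p-value, adjusted by the Benjamini-Hochberg method over all 17784 genes, is under 0.05. With 2 samples against 2, an exact two-sided permutation test of a single gene cannot give p below 0.333, so a call depends on pooling of the variance across genes.

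Of the 10 genes, 2 were called, Aqp4 and Slc1a3, and both were lower in OD. Aqp4 fell by 26.0% and Slc1a3 fell by 20.9%. Neither call remained once the trend of the values with GC content was removed, when the log2 fold changes were -0.10 and -0.23 in place of -0.44 and -0.34. Nor did they with a constant variance prior, which leaves the fold changes as they are and called 0 genes of 17784 (3586 at an unadjusted p under 0.05, limma adjusted p of 0.130 for Aqp4 and 0.145 for Slc1a3). The other 8 did not pass the threshold, with limma adjusted p between 0.253 for Clu and 0.725 for Glul, and of these 5 had a log2 fold change above 0 and 3 below. Across all genes tested, 8.51% were called, 7.45% lower and 1.06% higher in OD, and no test was made of the 10 genes as a list. Their median log2 fold change was -0.0084, beside 0.015 for all genes. Both OD samples lay on one side of both SD samples for 4 of the 10 genes, Aqp4, Slc1a3, Kcnj10 and Clu, compared with 56.1% of all genes tested. In these mixed samples, fewer cells of a type and less RNA per cell cannot be told apart.

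**Figure D1:**
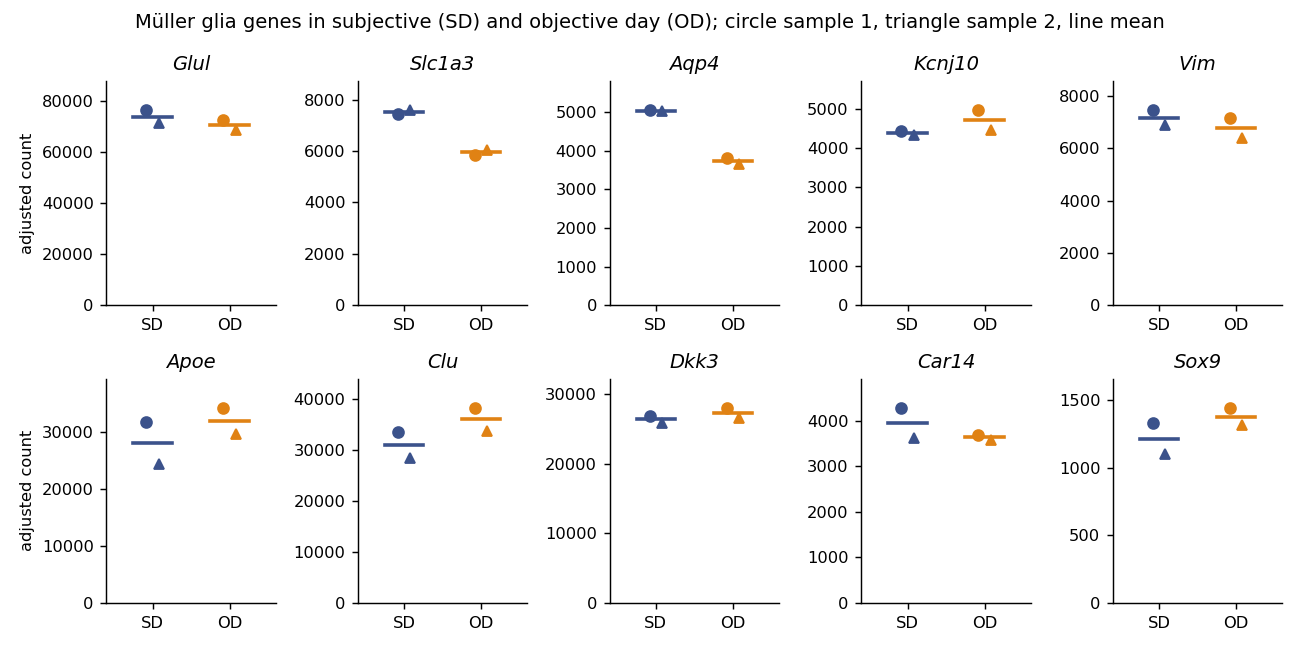
Adjusted count of each of the 10 genes (vertical axes from 0) in the SD and OD samples; circles are samples numbered 1, triangles samples numbered 2 and lines the mean of the 2 samples. For Aqp4 and Slc1a3 the OD samples lie well below the SD samples, whereas for Kcnj10 and Clu the OD samples lie above by a narrow margin and for the other 6 genes the conditions overlap.

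Of the glutamate genes, the uptake transporter Slc1a3 was called and the converting enzyme Glul was not, and the difference between their changes was not tested. Slc1a3 (ENSMUSG00000005360) lies at 8634124 to 8710764 of chromosome 15 of GRCm38 (minus strand). Its adjusted count was 7439 and 7588 in the SD samples and 5832 and 6058 in the OD samples. Both OD samples were thus lower than both SD samples, with means of 7513 ± 105 (standard deviation, n = 2) and 5945 ± 160 (n = 2) and a gap of 0.30 on the log2 scale between the nearest samples of the conditions. The log2 fold change was -0.34 (standard error 0.059, 95% interval -0.48 to -0.20, limma adjusted p = 0.0166). The call was lost when either OD sample was left out, with adjusted p = 0.134 without OD sample 1 and 0.0817 without OD sample 2, although the log2 fold change stayed between -0.37 and -0.31 with any sample left out.

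Glul (ENSMUSG00000026473), at 153899944 to 153909723 of chromosome 1 (plus strand), had an adjusted count of 76479 and 71512 in SD and of 72525 and 68629 in OD. The conditions overlapped. The means were 73996 ± 3512 (standard deviation, n = 2) and 70577 ± 2755 (n = 2), and the log2 fold change was -0.068 (standard error 0.10, 95% interval -0.31 to 0.17, limma adjusted p = 0.725), and it ran from -0.12 to -0.020 with each sample left out. Glul shares 116 exonic bases with Teddm2 on the opposite strand and contains the microRNA gene Mir8114, and the strand setting of the counting is not given in the sources used here, so reads from the shared bases cannot be told apart.

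The sequence before the start of Slc1a3, which fell, is shown with those of Glul and Kcnj10, its partners in glutamate and ion handling, which were not called. Each is the 250 bases upstream of the RefSeq gene start in GRCm38.p6, printed 5′ to 3′ on the strand of the gene, at chr15:8710808-8711057 on the minus strand for Slc1a3, chr1:153899679-153899928 on the plus strand for Glul and chr1:172340960-172341209 on the plus strand for Kcnj10. The RefSeq start of Slc1a3 lies 43 bases upstream of the gene start in GENCODE M21 and matched no transcript start there, unlike those of Glul and Kcnj10. Capitals mark the core letters bound by Sox proteins, ACAAT, on either strand (ATTGT as its reverse complement).
Slc1a3: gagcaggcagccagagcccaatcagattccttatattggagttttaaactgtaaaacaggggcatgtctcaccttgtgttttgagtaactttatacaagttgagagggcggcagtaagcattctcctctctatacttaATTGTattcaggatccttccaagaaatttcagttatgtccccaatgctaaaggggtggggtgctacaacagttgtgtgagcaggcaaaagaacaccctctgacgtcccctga
Glul: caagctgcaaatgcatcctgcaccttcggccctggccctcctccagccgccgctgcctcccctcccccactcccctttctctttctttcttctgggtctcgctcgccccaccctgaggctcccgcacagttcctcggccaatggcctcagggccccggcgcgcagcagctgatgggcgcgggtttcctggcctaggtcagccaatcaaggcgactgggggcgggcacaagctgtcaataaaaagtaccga
Kcnj10: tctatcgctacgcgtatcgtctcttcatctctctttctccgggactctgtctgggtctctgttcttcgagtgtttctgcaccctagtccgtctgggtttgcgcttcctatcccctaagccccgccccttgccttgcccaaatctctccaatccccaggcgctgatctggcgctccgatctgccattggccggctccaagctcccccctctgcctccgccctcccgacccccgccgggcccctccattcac

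These windows differ in base composition. GC content was 44.8% for Slc1a3, 64.8% for Glul and 62% for Kcnj10. The window of Slc1a3 holds 1 match to the Sox core and those of Glul and Kcnj10 hold none. Windows were read for 6 of the 10 genes, namely these and Vim, Car14 and Apoe, with 8 windows in all because Apoe has several starts. The Sox core occurred in 2 of the 8 windows, that of Slc1a3 and 1 of Apoe, compared with 27.7% of 32851 promoter windows of the same length. The E-box CACGTG, the element bound by clock proteins, occurred in 0 of the 8 windows and in 6.02% of all windows. The cyclic AMP response element TGACGTCA likewise occurred in 0 of the 8 and in 1.55% of all windows. A match is a run of letters and not a binding site, and CACGTG and TGACGTCA share the letters ACGT without either containing the other. Clu, Dkk3 and Sox9 had no entry, and Aqp4 was not used here.

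Further genes of glutamate and glutamine handling were read beside these, and 15 are reported. Their log2 fold changes ran from -0.41 for Slc7a11, the light chain of the cystine and glutamate exchanger (limma adjusted p = 0.119), to 0.22 for Gls2, an enzyme of glutamine breakdown (limma adjusted p = 0.207).

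The water channel gene Aqp4 was called and the potassium channel gene Kcnj10 was not, and the difference between their changes was not tested. Aqp4 (ENSMUSG00000024411), at 15389496 to 15410982 of chromosome 18 (minus strand), had adjusted counts of 5053 and 5030 in SD and of 3807 and 3651 in OD. These SD samples were nearly equal, at a ratio of 1.00, and both OD samples were lower. Mean adjusted counts were 5041 ± 15.8 (standard deviation, n = 2) in SD and 3729 ± 110 (n = 2) in OD, and the nearest samples of the conditions were 0.40 apart on the log2 scale. Between conditions the log2 fold change was -0.44 (standard error 0.058, 95% interval -0.57 to -0.30, limma adjusted p = 0.00707). With each sample left out in turn it remained called, with limma adjusted p from 0.00284 to 0.0490.

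Kcnj10 (ENSMUSG00000044708), at 172341210 to 172374085 of chromosome 1 (plus strand), had adjusted counts of 4435 and 4332 in SD and of 4963 and 4474 in OD. Both OD samples were above both SD samples, but the nearest pair differed by only 0.013 on the log2 scale. The log2 fold change was 0.10 (standard error 0.069, 95% interval -0.057 to 0.27, limma adjusted p = 0.390), so a fall of the size of that of Aqp4 lay outside the interval. It was 0.029 without OD sample 1 and 0.18 without OD sample 2.

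Of 17 further genes of potassium and water handling that are reported, all tested, 1 was called, and the median log2 fold change was 0.078. The called gene was Dmd, which encodes dystrophin and its short retinal forms and links the endfoot channels to the cytoskeleton. Its adjusted counts were 7037 and 7735 in SD and 5763 and 5827 in OD (log2 fold change -0.35, limma adjusted p = 0.0226), but the call was lost with the GC trend removed, at -0.024 (limma adjusted p = 0.912). Other genes of the dystrophin complex and its relatives were not called, with log2 fold changes of 0.14 for Dag1, 0.083 for Sntb1, -0.081 for Dtna and 0.026 for Utrn. The extremes were Kcnj2, an inward rectifier channel, at -0.38 (limma adjusted p = 0.0548) and Kcnj13, the inward rectifier of the RPE, at 0.47 (limma adjusted p = 0.0608).

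**Figure D2:**
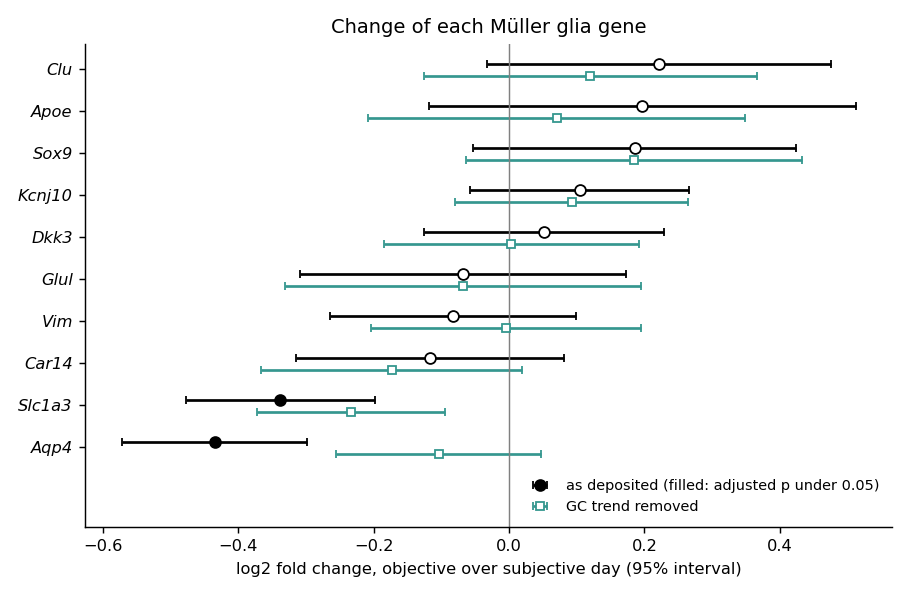
Log2 fold change of each gene, OD over SD, with its 95% interval from limma, for the values as deposited (black; filled where the adjusted p is under 0.05) and after removal of the GC trend in every sample (green squares). As deposited only the intervals of Aqp4 and Slc1a3 exclude 0; with the trend removed these 2 genes stand at -0.10 and -0.23 and neither is called, although the interval of Slc1a3, which is not adjusted for the number of genes, still excludes 0.

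Car14 (ENSMUSG00000038526) encodes a membrane carbonic anhydrase that speeds the exchange of carbon dioxide and bicarbonate at the glial surface. It lies at 95897768 to 95904691 of chromosome 3 (minus strand) and shares 445 exonic bases with Aph1a on the plus strand, so its count is uncertain without a known strand setting. The adjusted count of Car14 was 4276 and 3623 in SD and 3677 and 3580 in OD. The SD samples differed by a ratio of 1.18 and the conditions overlapped. Its log2 fold change was -0.12 (standard error 0.085, 95% interval -0.32 to 0.081, limma adjusted p = 0.433), and it was 0.0022 without SD sample 1 and -0.24 without SD sample 2. Among 13 further genes of acid, bicarbonate and lactate transport, all tested, only Slc4a7, a sodium bicarbonate cotransporter, was called, at -0.36 (limma adjusted p = 0.0146), and with the GC trend removed it was at -0.042 and not called (limma adjusted p = 0.827). Its adjusted counts were 6706 and 7050 in SD and 5325 and 5413 in OD. The lactate transporter Slc16a7 had the lowest log2 fold change of this list, -0.50 (limma adjusted p = 0.0548), which turned to 0.095 with the GC trend removed, and the bicarbonate transporter Slc4a4 the highest, 0.28 (limma adjusted p = 0.379).

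The lipid carriers Apoe and Clu had OD means above their SD means and were not called. Apoe (ENSMUSG00000002985), at 19696109 to 19699188 of chromosome 7 (minus strand), encodes the main apolipoprotein of glia. Its adjusted count was 31803 and 24457 in SD and 34295 and 29803 in OD. The SD samples differed by a ratio of 1.30, the widest replicate ratio of the 10 genes, and the conditions overlapped. This gave a log2 fold change of 0.20 (standard error 0.13, 95% interval -0.12 to 0.51, limma adjusted p = 0.406), and without SD sample 1 it was 0.39 and passed the threshold (adjusted p = 0.0383), while without SD sample 2 it was 0.0076 (adjusted p = 0.980).

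Clu (ENSMUSG00000022037), at 65968483 to 65981547 of chromosome 14 (plus strand), encodes clusterin, a secreted chaperone and lipid carrier. Its adjusted count was 33390 and 28376 in SD and 38193 and 33716 in OD. The OD samples lay above the SD samples, by 0.014 on the log2 scale between the nearest. The log2 fold change was 0.22 (standard error 0.11, 95% interval -0.033 to 0.48, limma adjusted p = 0.253), and it was 0.34 without SD sample 1 and 0.10 without SD sample 2. Of 14 further genes of lipid uptake, export and control, 0 were called by limma, 5 had an unadjusted p under 0.05, all 5 higher in OD, beside 25.4% of all genes, and the median log2 fold change was 0.14, or 0.083 with the GC trend removed. The extremes were Lpl, a lipoprotein lipase, at -0.43 (limma adjusted p = 0.285) and Nr1h3, a sterol-sensing nuclear receptor, at 0.37 (limma adjusted p = 0.129).

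Vim (ENSMUSG00000026728), the intermediate filament of mature Müller glia, is located at 13573927 to 13582826 on the plus strand of chromosome 2. Its adjusted count was 7448 and 6867 in SD and 7145 and 6387 in OD, and the conditions overlapped. OD over SD gave a log2 fold change of -0.082 (standard error 0.078, 95% interval -0.26 to 0.10, limma adjusted p = 0.555), and it was -0.16 without OD sample 1 and -0.0013 without OD sample 2. Of 5 further filament genes, all tested, 1 was called, Gfap, the filament of astrocytes that Müller glia add under stress. Gfap had adjusted counts of 2037 and 2237 in SD and of 1508 and 1568 in OD, and its log2 fold change was -0.47 (standard error 0.071, limma adjusted p = 0.00970). The other 4, Nes, Lmna, Des and Synm, had log2 fold changes between 0.062 and 0.16, the highest that of Synm (limma adjusted p = 0.193).

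Dkk3 (ENSMUSG00000030772), at 112116017 to 112159057 of chromosome 7 (minus strand), encodes a secreted member of the Dickkopf family. Its adjusted count was 26842 and 25958 in SD and 28057 and 26662 in OD, and the conditions overlapped. The log2 fold change was 0.051 (standard error 0.076, 95% interval -0.13 to 0.23, limma adjusted p = 0.719), and it ran from 0.014 to 0.088 with each sample left out. Of 9 further genes of secreted Wnt antagonists and related proteins, 8 were tested, since Dkk1 fell below the filter, and 1 was called. This was Frzb, with adjusted counts of 783 and 768 in SD and of 597 and 618 in OD (log2 fold change -0.35, limma adjusted p = 0.0322), and with the GC trend removed it was at -0.38 and not called (limma adjusted p = 0.0667). The median of the 8 was 0.13, and their range ran from -0.38 for Sfrp4 (limma adjusted p = 0.449) to 0.25 for Wif1 (limma adjusted p = 0.766).

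Sox9 (ENSMUSG00000000567), a transcription factor that sustains glial identity, is located at 112782224 to 112787760 on the plus strand of chromosome 11. Its adjusted count was 1330 and 1099 in SD and 1441 and 1313 in OD. The lower OD sample fell just short of the higher SD sample, so the conditions overlapped. Its change on the log2 scale was 0.19 (standard error 0.10, 95% interval -0.053 to 0.42, limma adjusted p = 0.302), and without SD sample 1 it was 0.32 and passed the threshold (adjusted p = 0.0304), while without SD sample 2 it was 0.048 (adjusted p = 0.807). Of 15 further regulators of glial fate, all tested, 1 was called in each direction. Id3, an inhibitor of helix-loop-helix factors, rose from 773 and 688 to 959 and 924 (log2 fold change 0.37, limma adjusted p = 0.0397). Nfib, a nuclear factor of late retinal progenitors and glia, had adjusted counts of 2336 and 2424 in SD and of 2023 and 1936 in OD (log2 fold change -0.27, limma adjusted p = 0.0427). Both calls were lost with the GC trend removed, at 0.27 for Id3 (limma adjusted p = 0.188) and -0.054 for Nfib (limma adjusted p = 0.776). The median of the 15 was 0.073, with 12 above 0, beside a median of 0.015 for all genes. With the GC trend removed it was 0.033, beside 0.021 for all genes. Sox2, Lhx2, Rax, Hes1 and Notch1 were not called.

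Among 14 other Müller-enriched genes, 13 were tested and 2 were called, both lower in OD. Abca8a, a lipid transporter of the ABC family, had adjusted counts of 9846 and 9469 in SD and of 7624 and 7473 in OD (log2 fold change -0.36, limma adjusted p = 0.0152). Gpr37, an orphan receptor of glia, had adjusted counts of 5628 and 5491 in SD and of 4566 and 4453 in OD (log2 fold change -0.30, limma adjusted p = 0.0219). Neither was called with the GC trend removed, at -0.15 for Abca8a (limma adjusted p = 0.402) and -0.28 for Gpr37 (limma adjusted p = 0.0891). Rlbp1, the retinoid carrier of Müller glia and RPE, had a log2 fold change of 0.0024 (limma adjusted p = 0.992), and the highest of the list was Ptgds, prostaglandin D synthase, at 0.27 (limma adjusted p = 0.243). Pdpn was not analysed here. Over the genes reported of all 8 companion lists, 8 of 100 genes tested were called, 7 lower and 1 higher, a share of 8% beside 8.51% of all genes, and their median was 0.068. With the GC trend removed, or without either OD sample, 1 was called, whereas 21 were without SD sample 1.

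**Figure D3:**
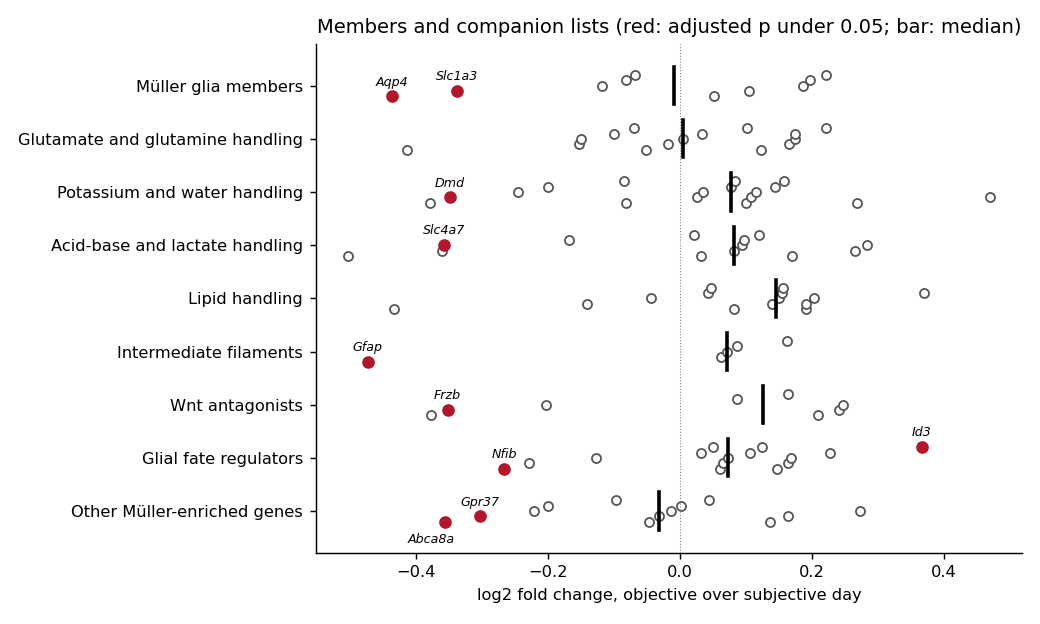
Log2 fold change, OD over SD, of the 10 genes and of the tested and reported genes of each companion list (1 circle per gene; red and named where the adjusted p is under 0.05; black bar, median of the list). In the top row Aqp4 and Slc1a3 stand apart at the low end while the other 8 genes lie between -0.12 and 0.22.

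Levels of different genes were compared as adjusted counts per kilobase of the longest annotated transcript. By this measure the order from high to low was Glul, Apoe, Clu, Dkk3, Vim, Car14, Slc1a3, Aqp4, Kcnj10 and Sox9. Glul, at 26503 ± 1258 (standard deviation, n = 2) per kilobase in SD and 25278 ± 987 in OD, ranked above 99.8% of the genes with a known length. Sox9, at 294 ± 39.6 and 333 ± 21.9, was the lowest of the 10 and still ranked above 63.6% of genes. The highest level was 82.6 times the lowest. Over the 4 samples, the ranges of Apoe and Clu overlapped, as did those of Vim and Car14 and those of Aqp4 and Kcnj10, so the order within these pairs was not resolved. The other neighbours in the order did not overlap. Aqp4 was above Kcnj10 in SD, at 998 ± 3.12 against 811 ± 13.4 per kilobase, and below it in OD, at 738 ± 21.8 against 873 ± 64.1. When the length of the union of exons was used instead, 5 of the 10 genes kept their rank, and over the 4 samples together Slc1a3 and Aqp4 stood below Kcnj10. By that length Slc1a3 was at 880 ± 12.3 per kilobase in SD and 696 ± 18.7 in OD, above Kcnj10 in SD and below it in OD. By the same length Aqp4 and Kcnj10 were at 809 ± 2.53 and 811 ± 13.4 per kilobase in SD and at 598 ± 17.7 and 873 ± 64.1 in OD, so their order in SD depends on the length used.

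**Figure D4:**
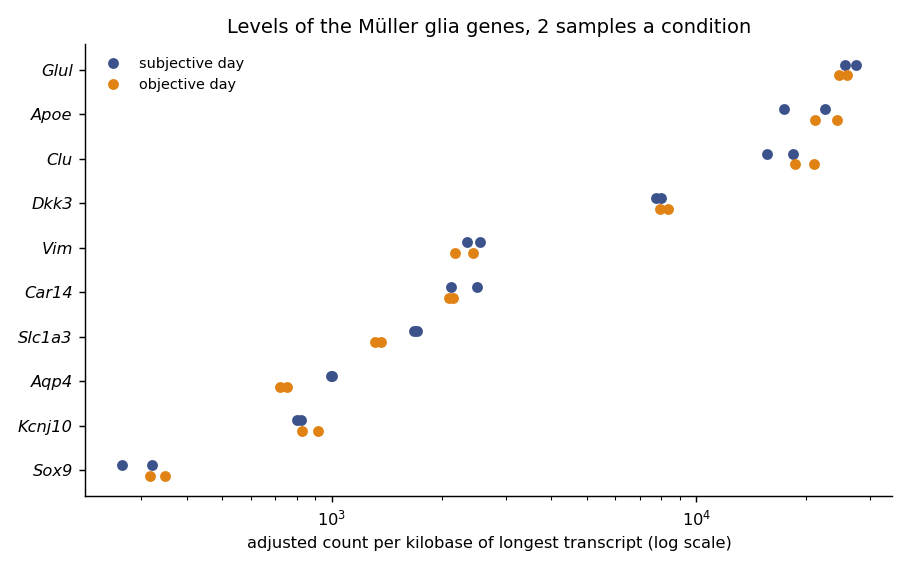
Adjusted count per kilobase of the longest transcript (log scale) for each gene in the 2 SD and 2 OD samples. Levels run from Sox9 at about 313 to Glul at about 25891 on average, and with this length Aqp4 lies above Kcnj10 in SD and below it in OD.

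Ratios between genes within a sample do not depend on the scaling of that sample. The log2 ratio of Aqp4 to Kcnj10, per kilobase, was 0.29 and 0.31 in the SD samples and -0.29 and -0.20 in the OD samples. The sign of these ratios depends on the transcript length used, but their difference between conditions does not. The ratio was 0.54 lower in OD on the log2 scale, while samples of a condition differed by 0.027 in SD and 0.090 in OD. Such a ratio does depend on the GC trend, without which the log2 fold changes were -0.10 for Aqp4 and 0.093 for Kcnj10. Without that trend, those of other genes in these ratios were -0.23 for Slc1a3, -0.068 for Glul, 0.18 for Sox9 and 0.0033 for Dkk3. The log2 ratio of Slc1a3 to Glul was -4.03 and -3.90 in SD and -4.30 and -4.17 in OD, lower in OD by 0.27, with differences within a condition of 0.13 and 0.13. For Aqp4 over Slc1a3, the 2 genes that fell, the log2 ratio was -0.75 and -0.78 in SD and -0.80 and -0.92 in OD, a difference of -0.097 with no overlap but below the spread of 0.12 between the OD samples. The log2 ratio of Apoe to Clu was 0.29 and 0.15 in SD and 0.21 and 0.18 in OD and overlapped between the conditions, as did those of Vim and Car14 to Glul. The log2 ratio of Sox9 to Glul was higher in OD by 0.25 and that of Dkk3 to Glul by 0.12, both without overlap, and that of Slc1a3 to Kcnj10 was lower without overlap, with a difference of -0.44. These 9 ratios were chosen after the values were seen and are given as a description. Among single genes, 56.1% of all tested had both OD samples on one side of both SD samples, and no such share was computed for ratios.

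The GC content of the transcript moved with the change across the whole table. The Spearman correlation of log2 fold change with GC content was 0.58 across 17536 genes, and genes do not count as replicates. Grouped by GC content into deciles, genes had a median log2 fold change of -0.43 at the low end and 0.14 at the high end. The longest transcript of Aqp4 has a GC content of 41.4%, in the lowest decile, where the interquartile range was -0.66 to -0.23. Aqp4, at -0.44, was close to the median of that decile. Its GC content, at percentile 9.92, lay at the upper edge of the decile, and the median of decile 2 was -0.21. Slc1a3, at 45.7% GC, belongs to decile 3, where the median was -0.11 and the interquartile range -0.23 to 0.00057, and its -0.34 was below that range. Apoe, with 59.5% GC the richest of the 10, lay in the highest decile, and its 0.20 was within the interquartile range there, 0.058 to 0.23.

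After removal of each sample's trend with GC content by local regression, 0 of the 10 genes were called and 211 genes in all. The log2 fold change of Aqp4 was then -0.10 (standard error 0.065, limma adjusted p = 0.559) and that of Slc1a3 -0.23 (standard error 0.060, adjusted p = 0.136). The other 8 genes ran from -0.17 for Car14 to 0.18 for Sox9. Of the 8 companion genes called, 1 remained, Gfap, whose GC content of 55.5% lies where most genes had values above 0 (log2 fold change -0.57, limma adjusted p = 0.0217). Of the other 7, Gpr37 and Frzb, of 48.5% and 50.3% GC, moved least, and Id3, Abca8a, Nfib, Slc4a7 and Dmd moved towards 0. Of the low extremes that were not called, Slc7a11 moved to -0.038, Kcnj2 to -0.035 and Slc16a7 to 0.095, whereas Lpl stood at -0.23 and Sfrp4 at -0.22. Of the high extremes that were not called, Kcnj13 moved up to 0.53 and Slc4a4 to 0.38, while Gls2, Nr1h3, Synm, Wif1 and Ptgds moved towards 0. Since the GC trend separates the same samples as the condition, its part in the changes of Aqp4 and Slc1a3 cannot be told apart.

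**Figure D5:**
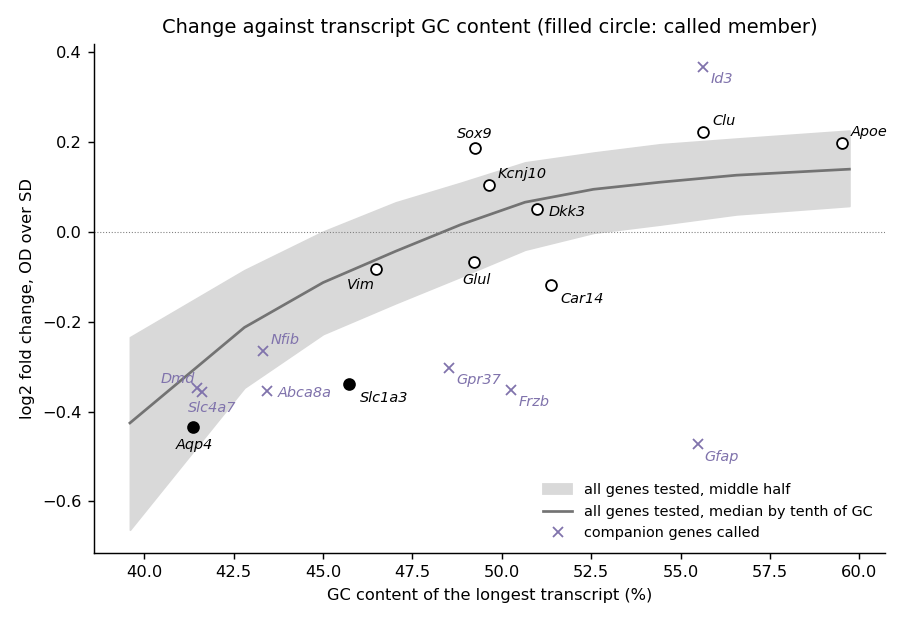
Log2 fold change, OD over SD, against GC content of the longest transcript; the grey line is the median and the band the interquartile range of all genes tested in each decile of GC content, joined by straight lines, circles are the 10 genes (filled if called) and crosses the called companion genes. Aqp4 lies inside the band at low GC, whereas Slc1a3, Car14, Abca8a, Gpr37, Frzb and Gfap lie below it and Sox9, Clu and Id3 above it.

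Markers of other cells were read beside these results. Müller markers outside the 10 genes (Rlbp1, Gpr37, Abca8a, Cspg5, Mlc1, Crym) summed to 43139 and 37884 in SD and 38619 and 36772 in OD, with 2 of 6 called, both lower. These 2, Abca8a and Gpr37, are the genes already given above among the other Müller-enriched genes. Of all genes tested, 8.51% were called, 7.45% lower in OD. Of 5 astrocyte markers, Gfap alone was called, while Aldh1l1, S100b, Pax2 and Pdgfra had log2 fold changes between -0.020 and 0.12. Pax2, which defines astrocytes of the optic nerve head and retina, was low, at 41.9 to 57.3. The astrocyte sum was 4822 and 4699 in SD and 4464 and 4104 in OD. The sum of 7 rod markers was 1054980 and 935820 in SD and 1223470 and 1098300 in OD, with 0 of 7 called by limma and 2 at an unadjusted p under 0.05, both higher. Beside this count and the like counts below, 25.4% of all genes tested had an unadjusted p under 0.05. Among 6 microglia and macrophage markers, which bear on Apoe, 1 was called, P2ry12, at -0.90 (limma adjusted p = 0.0301). The other 5 had log2 fold changes above 0, 2 of them at an unadjusted p under 0.05, the median of the list was 0.14, and the sum was 2774 and 2304 in SD and 2712 and 2688 in OD. The sum of 6 RPE markers, whose cells also make Apoe and Clu, was 67548 and 56682 in SD and 67477 and 61541 in OD, with 0 of 5 tested called by limma, 1 at an unadjusted p under 0.05, and Best1 near 0.

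Lens markers, which bear on Vim, varied most, although the lens had been removed from the eyes. Their sum was 39362 in SD sample 1 and 46020 in OD sample 1 but 5075 in SD sample 2 and 12058 in OD sample 2, with 0 of 6 tested called by limma and 0 at an unadjusted p under 0.05. Vim was higher in the samples numbered 1 within each condition, by ratios of 1.08 and 1.12, as were 9 of the 10 genes in all and 35.2% of all genes tested. Ocular surface keratins were lower in OD, with a sum of 9809 and 10217 in SD and 2751 and 5076 in OD, and 3 of 3 tested genes (Krt5, Krt14, Krt15) were called, while Krt12 was near 0. Ciliary epithelium markers summed to 1096 and 1080 in SD and to 1427 and 1466 in OD, with Optc called higher. The sums of bipolar, amacrine, ganglion, scleral and melanocyte markers gave log2 ratios of OD to SD between -0.067 and 0.27. Cabp5 of the bipolar list and Lum of the scleral list were called lower, while 3 of the 5 markers of each list had log2 fold changes above 0, with medians of 0.097 and 0.092. The endothelial sum had a log2 ratio of -0.084 and followed its most abundant marker, Kdr, whereas the other 4 of its 5 markers had log2 fold changes above 0, the median was 0.19 and Cldn5 was called higher. With the GC trend removed, Abca8a, Gpr37, P2ry12 (-0.38, limma adjusted p = 0.423), Cabp5, Lum and Cldn5 were not called. The keratins, Optc and Gfap still were, and Dct and Tyr, of the melanocyte and RPE lists, were called higher. The part of any of these cells in the values of the 10 genes was not tested.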

How the data were processed

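Polyadenylated RNA from 4 posterior eye samples was sequenced as single reads on 1 lane. The submitters' processing notes list, as tools the authors used, CASAVA 1.8, TopHat2 2.0.9, Bowtie2 2.1.0, HTSeq and edgeR, and the methods name Ensembl release 72; normalization, low-count filter and strand setting are not given in the sources used here. The values deposited by the authors are a signal per gene, fractional counts adjusted to a common library size, so a count model could not be used. The authors' columns of fold change, mean level and p-values were not used.

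Genes reaching 10 in 2 or more samples were kept, and log2(value + 1) was fitted in R 4.3.3 with limma 3.58.1, a variance prior following mean expression and Benjamini-Hochberg adjustment across all 17784 genes, and the code was tested on simulated data. Loci, transcript lengths and GC content (98.6% of genes tested) came from GENCODE M21 on GRCm38, the assembly of the authors' annotation in a later release, and promoters from RefSeq (GRCm38.p6). Replicates are separate pools by the methods.

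The 10 genes, companion lists and markers were chosen with earlier results of these data known. Some genes of the companion lists are not reported here, and counts and medians over the lists leave them out. Named companion genes were those called and the highest and lowest of each list; others named (the dystrophin complex, some filament and fate genes, Rlbp1 and the markers) were chosen after their values were seen. The GC trend was removed by local regression (span 0.3) in each sample, so that biological differences tied to GC content are lost as well. Alternatives covered pseudocount, filter, scaling, replicate block, variance prior, GC content and each sample left out. Figures used matplotlib 3.10.9.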

Additional observations from a re-analysis of the deposited data

How the results depend on the processing

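With 2 pools per condition, small changes could not be resolved. Changing the pseudocount, the filter or the scaling left Aqp4 and Slc1a3 as the called genes of the 10, and 7 (each sample divided by its total) or 8 companion genes called. Dividing each sample by its total moved the share of called genes lower in OD from 87.5% to 66.3% (1202 lower, 611 higher). With a constant variance prior limma called 0 genes (3586 at an unadjusted p under 0.05), hence 0 of the 10 and 0 companion genes, with adjusted p of 0.130 for Aqp4 and 0.145 for Slc1a3. With the GC trend removed, 211 genes were called, 111 lower and 100 higher, with 0 of the 10 and 1 companion gene. The labels number the samples 1 and 2 in each condition without tying the numbers together (correlation of deviations 0.319 across genes). With the number as a replicate block, 3613 genes, 4 of the 10 (Aqp4, Slc1a3, Apoe and Clu) and 24 companion genes were called, and with the block and the GC trend removed together 1609 genes, 11 companion genes and 1 of the 10, Slc1a3 (adjusted p = 0.00556 from limma). Leaving out each sample in turn gave 674 to 2778 genes, 1 to 4 of the 10 and 1 to 21 companion genes called. The most came without SD sample 1, when Apoe and Sox9 joined, and the fewest without either OD sample, when Slc1a3 was lost (775 genes without OD sample 1, 674 without OD sample 2). The 1 gene that changed sign, among 140 combinations of gene and setting, was Car14, from -0.12 to 0.0022 without SD sample 1 (-0.24 to 0.0022 with each sample left out), and the median of the 10 ran from -0.054 to 0.043 over all settings. The lone sample is assumed to vary like the others. With lengths from the union of exons, 5 of the 10 genes kept their rank by level. The causes were not tested.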

Other observations

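The samples of each condition differed in a shared way over most of the 10 genes. In both conditions the sample numbered 2 was lower than the sample numbered 1 for 9 of the 10 genes and higher for 1, Slc1a3. Across all genes tested, 35.2% were lower and 26.3% higher in the samples numbered 2 of both conditions. The replicate ratio was widest for Apoe, Sox9, Car14 and Clu in SD, at 1.30, 1.21, 1.18 and 1.18, and narrowest for Aqp4 in SD, at 1.00. Together the 10 genes made up 0.563% and 0.513% of the adjusted total in SD and 0.573% and 0.554% in OD, and Glul alone made up 0.205% to 0.217% in the 4 samples.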
